A study of Mus musculus with 4 samples.

Results

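The genes described here encode the respiratory chain and ATP synthase of mitochondria. They were chosen by symbol, as every gene whose name starts with mt-Nd, mt-Co, mt-Cyt, mt-Atp, Ndufa, Ndufb, Ndufc, Ndufs, Ndufv, Sdh, Uqcr, Cox4, Cox5, Cox6, Cox7, Cox8 or Atp5. Of the 32285 genes counted, 111 met this rule, 13 of them encoded by mitochondrial DNA and 98 by nuclear chromosomes. The nuclear genes comprised 39 subunits and 8 assembly factors of complex I, 4 subunits and 4 assembly factors of complex II, 8 genes of complex III, 18 of complex IV and 17 of complex V. The mitochondrial genes comprised 7 subunits of complex I, 1 of complex III, 3 of complex IV and 2 of complex V.

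Complexes I, III and IV pass electrons from NADH to oxygen and pump protons across the inner mitochondrial membrane, complex II feeds in electrons from succinate without pumping, and complex V, the ATP synthase, uses the proton gradient to make ATP. Complexes I, III, IV and V are built from subunits of both genomes, whereas complex II is wholly nuclear in origin. Muscle stem cells (MuSCs) are small and metabolically quiet while quiescent and gain mitochondria as they activate and differentiate, and mature fibres replace several complex IV subunits with muscle isoforms.

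The study asked what becomes of MuSCs that lose cadherin-based adhesion to their niche. Cells that had switched on the tdTomato reporter were sorted by fluorescence from the hindlimb muscles of C57BL/6J mice aged 3 to 4 months, 14 days after tamoxifen, and 30000 were loaded per sample for droplet 3′ RNA sequencing. The control samples carried Pax7CreERT2/+;Rosa26-tdTomato, and the α-cdKO samples carried Ctnna1fl/fl;Ctnna3fl/fl;Pax7CreERT2/+;Rosa26-tdTomato, so both groups carried the Cre allele and the reporter and only the second had floxed genes for αE-catenin and αT-catenin. Each genotype had 2 samples, and each sample pooled 2 littermate mice, so that every comparison of genotypes rests on 2 values against 2. Cre is driven by the Pax7 locus, which restricts recombination to Pax7-expressing cells and those derived from them.

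The 13 mitochondrial genes lie on 1 circular chromosome of which 12 are read from the plus strand, while mt-Nd6 alone lies on the minus strand (chrM:13552-14070, GRCm38). Neighbouring genes overlap in places, and 2 pairs on the plus strand share more than 1 base. The last 43 bases of mt-Atp8 are the first 43 of mt-Atp6 (chrM:7927-7969, plus strand), and the first 7 bases of mt-Nd4 lie within mt-Nd4l (chrM:10167-10173). In addition, mt-Atp6 ends and mt-Co3 starts at base 8607. The end of mt-Nd5 (chrM:11742-13565, plus strand) overlaps mt-Nd6 on the opposite strand. The overlap of mt-Atp8 and mt-Atp6 is shown because mt-Atp8 recurs in the comparison of genotypes below, and the capitals mark the start codon of mt-Atp6.
mt-Atp8/mt-Atp6: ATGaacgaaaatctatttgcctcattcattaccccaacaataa
Both genes of each plus-strand pair that shares more than 1 base are cut from the mitochondrial transcript as 1 RNA. UMIs of mt-Atp8 and mt-Atp6, or of mt-Nd4l and mt-Nd4, could therefore be split between the partners by the counting. Their separate levels are uncertain.

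Among nuclear members, the pair Cox8a and Cox8b is shown because the ubiquitous gene fell and the muscle gene rose in mature muscle (values below). The 250 bases before each start site, from RefSeq on GRCm38.p6, read 5′ to 3′ on the minus strand and overlap no annotated exon. The capitals in Cox8b mark an E-box with the letters CAGCTG, the kind bound by myogenic factors such as MyoD and myogenin. No searched motif was found in the window of Cox8a.
Cox8a (chr19:7217617-7217866): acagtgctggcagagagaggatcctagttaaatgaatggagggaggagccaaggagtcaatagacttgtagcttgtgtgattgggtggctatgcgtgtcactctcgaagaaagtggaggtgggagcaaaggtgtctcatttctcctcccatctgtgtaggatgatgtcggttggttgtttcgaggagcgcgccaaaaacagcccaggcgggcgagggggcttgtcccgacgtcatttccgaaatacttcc
Cox8b (chr7:140900447-140900696): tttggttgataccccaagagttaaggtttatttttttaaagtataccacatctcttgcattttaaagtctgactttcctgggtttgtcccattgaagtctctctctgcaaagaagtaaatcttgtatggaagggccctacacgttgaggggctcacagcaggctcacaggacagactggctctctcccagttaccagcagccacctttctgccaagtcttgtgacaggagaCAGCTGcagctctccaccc
Motifs of 6 kinds were searched on both strands in this window for the 79 nuclear members with an entry. No motif contained another. The NRF1 motif GCGCANGCG was present in 15 members (19.0%), against 5.33% of all 27025 windows. The ETS motif CCGGAAG, the kind bound by GABP, was also present in 15 members (19.0%), against 7.05% of all windows. The Sp1 motif GGGCGG was present in 43.0% of members and 32.9% of windows, and the YY1 motif AANATGGCG in 2.53% and 1.12%. The muscle motifs were present in smaller shares of members than of all windows, with CAGCTG in 7.59% against 12.8% and the MEF2 motif CTANNNNTA in 15.2% against 19.0%. These matches describe letters only.

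Unique molecular identifiers (UMIs) each stand for 1 counted RNA molecule. A barcode entered the analysis with 1000 or more UMIs and 400 or more genes, provided that mitochondrial UMIs made under 15%, which left 28790 of 31254. Kept cells per sample numbered 5354 to 9786 and had a median of 6452.5 to 8075 UMIs, from total counts of 46099310 to 74921651. Any 2 samples shared 9 to 26 barcodes, at most 0.383% of the smaller sample. The counts could not check the deletion: Ctnna1 lay at 91.0 and 74.7 CPM (UMIs of the gene scaled to a common total) in the control samples and at 79.3 and 75.6 in the α-cdKO samples, and Ctnna3 at no more than 0.0957 CPM, but 3′ counts need not read the deleted part. The mitochondrial limit bears directly on the members, because the 13 mitochondrial members are the genes it sums.

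Cells were clustered without the members, and clusters were named from marker lists. Clusters called mature-muscle-like and cycling-like raised 11 of 11 markers each, and the cluster called quiescent-like raised 7 of 12. The clusters called activated-like raised 9 and 5 of 16 markers and their lists' mean log2 fold was only 0.03 and 0.22 in the final round, so this name is weakly borne by the markers and their leading genes were chemokine genes (Cxcl2, Cxcl5) in one and chaperone genes (Hsph1, Dnaja1) in the other. Myod1 nevertheless lay at 530 to 931 CPM in activated-like cells against 91.9 to 125 in quiescent-like cells, and Pax7 at 39.4 to 107 against 126 to 208. Cells of a myogenic cluster with at least 2 UMIs of Myog, the gene for myogenin, were taken out of the other states and called Myog-positive. Over all samples there were 4743 quiescent-like, 20167 activated-like, 636 cycling-like, 615 Myog-positive and 1295 mature-muscle-like cells. The smallest groups were the 30 cycling-like and 51 Myog-positive cells of control replicate 1. Median UMIs per cell were 5003 to 7045 in quiescent-like, 6501.5 to 8868 in activated-like and 14292 to 18930.5 in cycling-like cells. They were 11768 to 17228 in Myog-positive and 2857 to 5915 in mature-muscle-like cells, so shares of UMIs and UMIs per cell are both given.

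The 2 genomes' transcripts did not move together between states. In quiescent-like cells the mitochondrial members took 6.80%, 6.80%, 7.36% and 6.27% of all UMIs (control replicates 1 and 2, then α-cdKO replicates 1 and 2, the order kept throughout), and the nuclear members 1.57%, 1.68%, 1.88% and 1.81%. In activated-like cells both shares were smaller in all 4 samples, at 5.62% to 6.23% and 1.29% to 1.47%. The mitochondrial share then stayed between 5.01% and 6.04% in cycling-like cells, while the nuclear share was 2.40% to 2.52%. In Myog-positive cells the nuclear share reached 3.69%, 4.11%, 3.88% and 4.35%, against a mitochondrial share of 5.88%, 6.28%, 7.44% and 5.95%. In mature-muscle-like cells the order of the genomes was inverted in all 4 samples, with nuclear shares of 11.3%, 11.7%, 11.8% and 6.92% and mitochondrial shares of 1.26%, 1.05%, 1.75% and 3.81%.

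**Figure D1:**
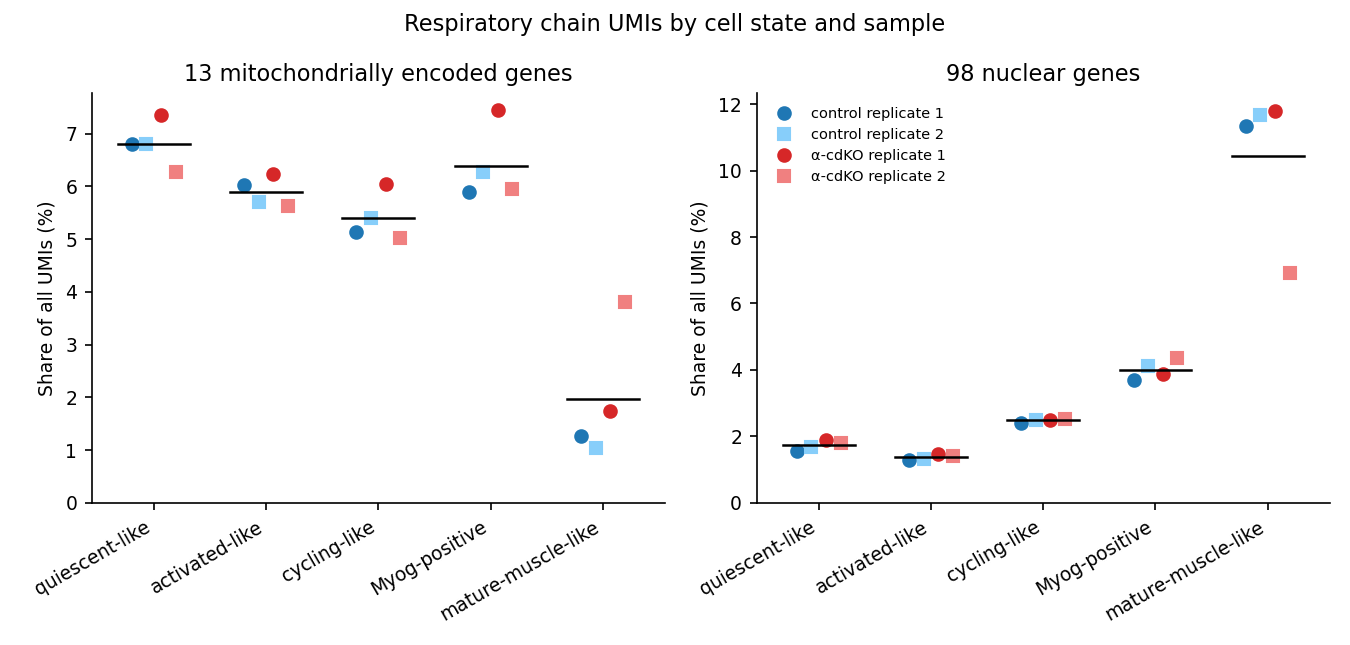
Share of all UMIs (%) taken by the 13 mitochondrially encoded members (left) and the 98 nuclear members (right) in each state, 1 point per sample with the horizontal line at the mean of 4 samples. The nuclear share lies between 1.29% and 1.88% in quiescent-like and activated-like cells and between 6.92% and 11.8% in mature-muscle-like cells, where the mitochondrial share is lowest.

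The ratio of mitochondrial to nuclear member UMIs was therefore highest in activated-like cells and lowest in mature-muscle-like cells. Its log2 was 2.12, 2.01, 1.97 and 1.79 in quiescent-like cells, or 3.94 ± 0.364 mitochondrial UMIs per nuclear UMI (SD, n = 4 samples). From quiescent-like to activated-like cells the log2 ratio was higher by 0.13 ± 0.04 (SD, n = 4), higher in 4 of 4 samples. From activated-like to cycling-like cells it was lower by 0.99 ± 0.13 in 4 of 4 samples, and from activated-like to Myog-positive cells lower by 1.43 ± 0.19 in 4 of 4 samples. From Myog-positive to mature-muscle-like cells the difference was -3.23 ± 1.29, again in 4 of 4 samples, with the extremes in control replicate 2 (-4.09) and α-cdKO replicate 2 (-1.31). Each of these 4 differences had an exact two-sided sign-flip p of 0.12, before and after Benjamini-Hochberg adjustment over the 4 pairs, the smallest that 4 samples allow, so none could pass 0.05. The first and smallest difference turned to -0.05 when the limit on mitochondrial UMIs was lifted.

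**Figure D2:**
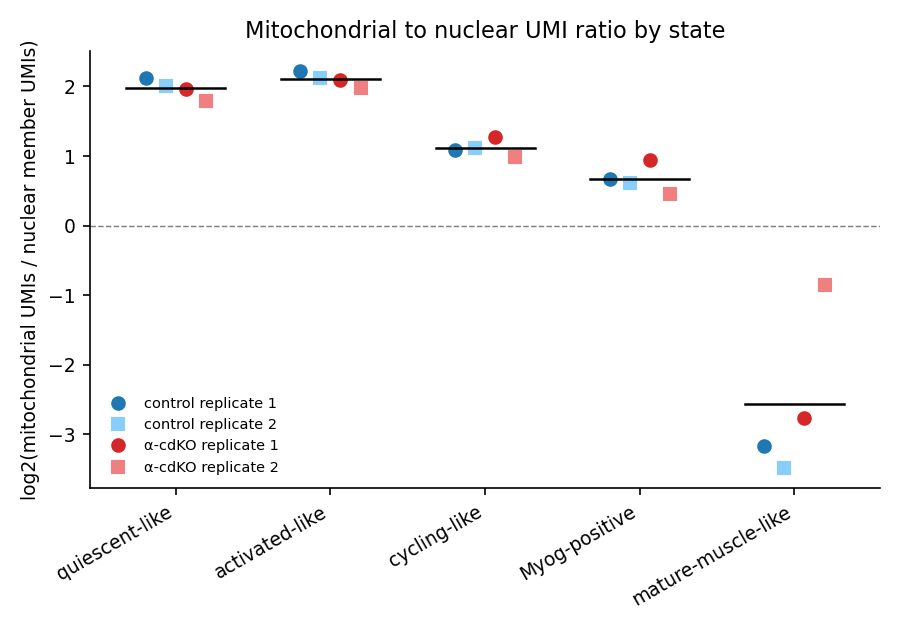
log2 of mitochondrial over nuclear member UMIs, summed per sample and state, with the horizontal line at the mean of 4 samples and the dashed line at equal counts. Values lie between 1.79 and 2.23 in quiescent-like and activated-like cells, between 0.45 and 1.27 in cycling-like and Myog-positive cells, and below 0 in mature-muscle-like cells, where α-cdKO replicate 2 stands at -0.86 and the other samples between -3.48 and -2.76.

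Counted per cell, both genomes' members were more abundant in activated-like than in quiescent-like cells, although both shares were smaller there. The median activated-like cell held 1.07 times as many nuclear member UMIs and 1.11 times as many mitochondrial UMIs as the median quiescent-like cell. Cycling-like and Myog-positive cells, which had more UMIs in all, held more of both again. The median cycling-like cell held 3.78 times as many nuclear member UMIs and 1.88 times as many mitochondrial UMIs as the median activated-like cell. The median Myog-positive cell held 5.25 times and 2.10 times as many. All 4 samples showed these directions. The gate of 2 Myog UMIs is itself met more readily by deep barcodes, and its part in these values was not tested. The differentiated-like cluster, formed without the gate, had medians of 272 to 452.5 nuclear member and 647 to 842 mitochondrial UMIs. Myog-positive cells had medians of 452 to 655 and 894 to 1017. The lower ratio in cycling-like and Myog-positive cells thus went with more mitochondrial UMIs per cell and still more nuclear ones. The median mature-muscle-like cell held 0.00423 times as many mitochondrial UMIs as the median Myog-positive cell, and 0.633 times as many nuclear member UMIs.

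Single members were tested with edgeR's quasi-likelihood test on the 20 sums of 4 samples and 5 states, with the sample as a term and Benjamini-Hochberg adjustment over all 11260 genes tested, and a gene was called at an adjusted p under 0.05. Of the 111 members, 107 were tested. The other 4 were Cox4i2, Cox7b2, Ndufa4l2 and Cox8c, with 143, 11, 10 and 1 UMIs over all myogenic cells. The main scaling was TMM, under which the median of all genes lay at -0.17, -0.01, -0.05 and -0.16 log2 for the 4 contrasts below. With library totals alone these medians were -0.29, 0.61, 0.35 and -0.74, so that directions of small changes depend on the scaling.

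From quiescent-like to activated-like cells the nuclear members fell more often than they rose, and the mitochondrial members were not called. Of 94 nuclear members tested, 42 fell (44.7%) and 8 rose (8.51%), with a median log2 fold change of -0.36. Over all genes 66.9% were called, 37.9% as falls and 29.0% as rises, so falls outnumbered rises there too. The 13 mitochondrial members had no call, their median was -0.07, and none had an unadjusted p under 0.05. Without control replicate 1 or 2 the rises numbered 4 and 3, and without α-cdKO replicate 1 the falls numbered 19. With doublets removed the falls numbered 27. With no filter on low counts the direction turned, with 24 members rising and 17 falling. By complex, 22 of 38 subunits of complex I fell and 1 rose, and 4 of its 8 assembly factors fell and 2 rose. In complex II 2 of 4 subunits and 3 of 4 assembly factors fell, complex III had 2 falls and 2 rises among 8, complex IV 4 falls and 1 rise among 15, and complex V 5 falls and 2 rises among 17.

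The assembly factor Sdhaf4, which helps mature the flavoprotein subunit of complex II, showed the largest fall. It lay at 9.81, 12.3, 9.91 and 10.8 CPM in quiescent-like cells and at 1.13, 1.19, 1.07 and 1.61 CPM in activated-like cells. The 2 states did not overlap, and the log2 fold change was -2.94 (SE 0.21, adjusted p = 8.9e-11). Sdhaf1, which assists the iron-sulfur subunit of complex II, fell from 12.3 ± 2.88 to 5.07 ± 0.314 CPM (SD, n = 4; log2 fold change -1.12, adjusted p = 5.9e-07). Among complex I genes, the assembly factor Ndufaf3 fell by 1.19 on the log2 scale (adjusted p = 7.8e-06), the accessory subunit Ndufa3 fell by 1.09 from 104 ± 8.57 to 44.9 ± 1.76 CPM (adjusted p = 7.1e-06), and the iron-sulfur subunit Ndufs8 fell by 0.99 (adjusted p = 1.7e-05). All 5 were lower in 4 of 4 samples. The subunits of complex II itself moved less. Sdhc and Sdhd, which anchor the complex in the membrane, fell by 0.54 (adjusted p = 0.0088) and 0.67 (adjusted p = 0.0055), while the catalytic subunits Sdha and Sdhb were not called (log2 fold change -0.16 and 0.16, adjusted p = 0.40 and 0.34).

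Against this direction, Ndufaf4, a complex I assembly factor, rose in activated-like cells. It lay at 24.3, 27.5, 26.2 and 25.7 CPM in quiescent-like cells and at 44.7, 60.5, 57.3 and 47.2 CPM in activated-like cells, with no overlap (log2 fold change 1.13, SE 0.14, adjusted p = 2.4e-07). Cox5a, a complex IV subunit, rose by 0.80 (adjusted p = 2.6e-04), and the complex I subunit Ndufb2 rose by 0.77 (adjusted p = 8.7e-04). The complex V component Atp5md rose by 0.59 (adjusted p = 0.0054) and the complex III subunit Uqcrq by 0.53 (adjusted p = 0.0097). All 5 were higher in 4 of 4 samples.

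From activated-like to cycling-like cells the nuclear members rose, and the mitochondrial members fell relative to the other genes. Of 94 nuclear members 49 rose and 6 fell (median 0.44), and all 13 mitochondrial members fell (median -0.84), where 61.4% of all genes were called, 30.4% as rises and 31.0% as falls. The falls depended on the scaling: with library totals no mitochondrial member was called in either direction, their median was -0.19, and 84 nuclear members rose and 1 fell. Under that scaling 6057 of all 11260 genes rose and 1228 fell. The 2 genomes' medians were apart under both scalings. Without α-cdKO replicate 1 the rises of members numbered 32, and without control replicate 1, or with doublets removed, the falls numbered 9. With no filter on low counts 23 members rose and 25 fell. By complex, 22 of 38 complex I subunits, 3 of 4 complex II subunits, all 4 complex II assembly factors, 8 of 17 complex V genes, 3 of 8 complex III genes and 4 of 15 complex IV genes rose.

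Sdhaf4 and Ndufaf3, named among the falls in activated-like cells, were also among the 5 largest rises here, and both contrasts use the same activated-like sums. Sdhaf4 rose by 2.67 (SE 0.26, adjusted p = 6.6e-09) to 15.99, 10.6, 12.1 and 12.8 CPM. Ndufaf3 rose by 1.48 (adjusted p = 2.9e-06) and Ndufaf7, which methylates a complex I subunit during assembly, by 1.34 (adjusted p = 1.6e-06). Ndufa4, a small subunit assigned to complex I by name and since placed in complex IV, lay at 95.2, 101, 133 and 102 CPM in activated-like and at 437, 474, 440 and 413 CPM in cycling-like cells, with no overlap (log2 fold change 1.40, adjusted p = 5.5e-07). Cox6b2, the isoform of Cox6b known from testis, rose from 7.06 ± 1.67 to 50.9 ± 23.3 CPM (SD, n = 4; log2 fold change 2.24, SE 0.17, adjusted p = 1.2e-10). Its share of Cox6b UMIs was 3.21% to 4.37% in activated-like and 7.32% to 16.4% in cycling-like cells, the 2 α-cdKO samples being highest.

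Members that did not follow this direction included Ndufaf4, called lower by 1.06 (adjusted p = 2.7e-06) with TMM scaling. Ndufaf4 lay at 52.4 ± 7.66 CPM in activated-like and 40.4 ± 7.46 CPM in cycling-like cells, but was not lower by CPM in every sample. Uqcrh, the hinge protein of complex III and its highest nuclear gene by mean CPM over the states, was called lower by 0.69 (adjusted p = 3.1e-04). Its CPM, however, was 708 ± 102 and 681 ± 89.7, and with library totals the change was -0.05 (adjusted p = 0.74). Cox4i1, the common isoform of the largest nuclear complex IV subunit, was called lower by 0.37 (adjusted p = 0.032) with TMM scaling but lay higher by CPM in 4 of 4 samples and at 0.27 (adjusted p = 0.062) with library totals. Its direction therefore depended on the scaling.

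From activated-like to Myog-positive cells almost every nuclear member rose and the mitochondrial members did not. Of 94 nuclear members 88 rose and 0 fell by edgeR, with a median log2 fold change of 1.38 and no fall at an unadjusted p under 0.05. Over all genes 62.0% were called, 29.1% as rises and 32.9% as falls. By complex, the rises were 36 of 38 subunits and 6 of 8 assembly factors of complex I, 4 of 4 subunits and 4 of 4 assembly factors of complex II, 7 of 8 complex III, 14 of 15 complex IV and 17 of 17 complex V genes. The complexes' median changes were alike, from 1.27 for complexes III and IV to 1.5 for complex I subunits, with 1.79 for the complex II assembly factors. With library totals 93 nuclear members rose and 0 fell, where 4864 of all 11260 genes rose and 2125 fell.

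Among the mitochondrial members, mt-Co1, the catalytic core of complex IV, fell by 0.58 (adjusted p = 0.0045) and mt-Co3 by 0.47 (adjusted p = 0.029). Both were lower by CPM in 3 of 4 samples, mt-Co1 at 8777 ± 122 CPM in activated-like and 7778 ± 994 CPM in Myog-positive cells, and neither was called with library totals (-0.18 and -0.06). Without either control replicate no member was called lower, without α-cdKO replicate 2 there were 6, and with no filter on low counts 13. The median of all 13 mitochondrial members was -0.23, against the all-gene median of -0.05. With library totals mt-Nd6, on the minus strand, was called higher (0.50, adjusted p = 0.027).

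The largest rises in Myog-positive cells included muscle isoforms. Cox8b, the muscle isoform of subunit 8 of complex IV, lay at 4.84, 12.05, 7.19 and 3.45 CPM in activated-like and at 72.8, 191, 136 and 125 CPM in Myog-positive cells (log2 fold change 3.99, SE 0.27, adjusted p = 1.5e-11). Cox7a1, the muscle isoform of subunit 7a, rose from 3.44 ± 1.32 to 41.9 ± 3.36 CPM (SD, n = 4; log2 fold change 3.27, adjusted p = 5.8e-12). Both were higher in 4 of 4 samples without overlap. They were still the minor isoforms there, Cox8b with 3.24% to 8.15% of Cox8 UMIs and Cox7a1 with 4.35% to 6.05% of Cox7a UMIs. Sdhaf4 rose by 3.64 (adjusted p = 6.4e-12), Sdhd by 2.49 (adjusted p = 6.2e-10), and Atp5k, a small membrane subunit of complex V, by 2.33 (adjusted p = 1.8e-10).

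**Figure D3:**
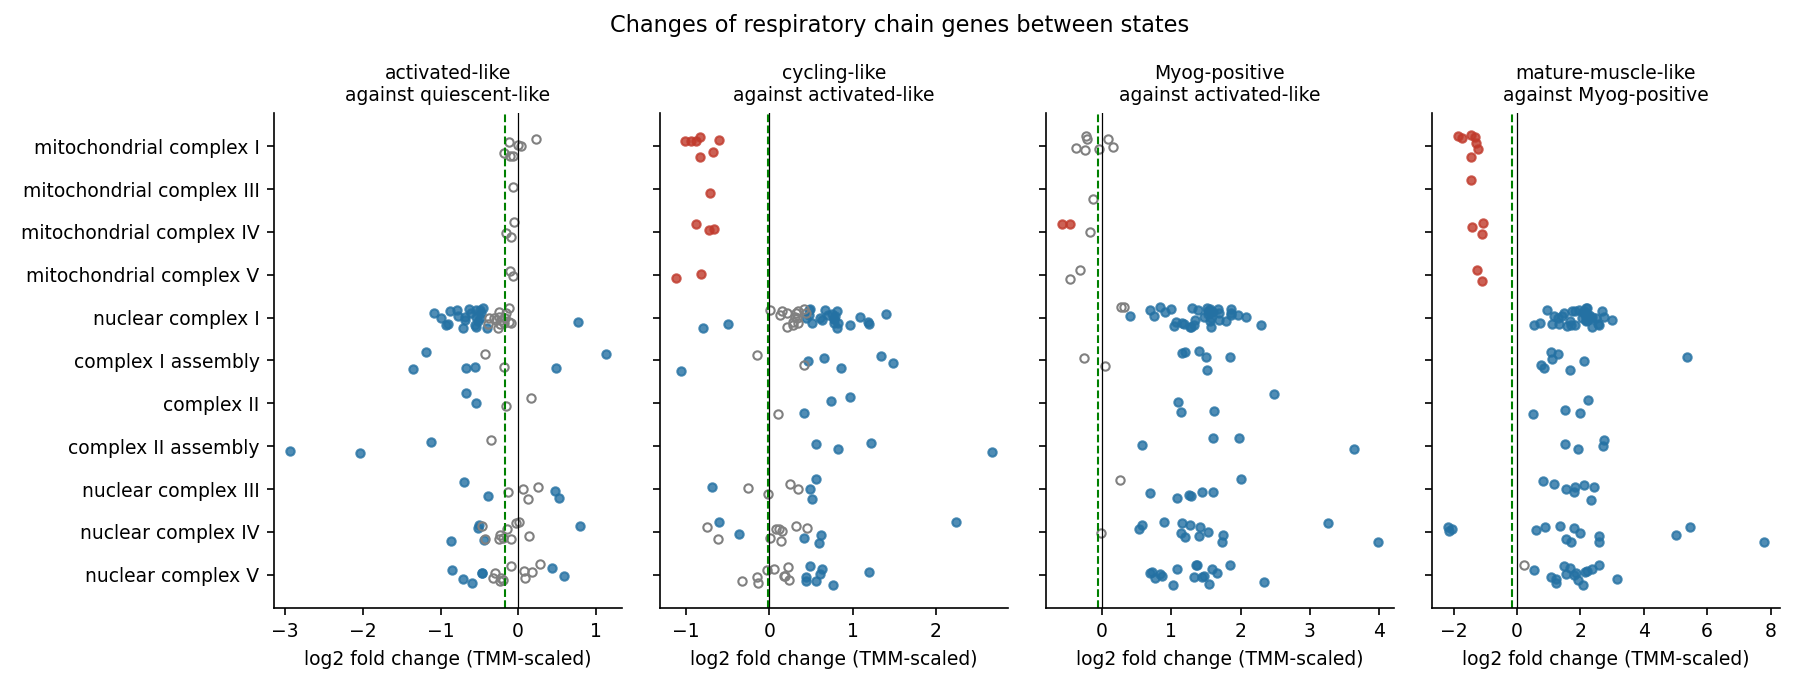
log2 fold change (TMM-scaled) of each tested member in the 4 contrasts of states, with members grouped by complex and by genome on the vertical axis, and the green dashed line at the median of all genes tested. In Myog-positive against activated-like cells the medians of the nuclear groups lie between 1.27 and 1.79 and those of the mitochondrial groups between -0.47 and -0.13.

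From Myog-positive to mature-muscle-like cells the nuclear members rose further and the mitochondrial members fell. Of 94 nuclear members 90 rose and 3 fell (median 1.85), and 13 of 13 mitochondrial members fell (median -1.34), where 55.8% of all genes were called, 26.6% as rises and 29.2% as falls. With library totals 82 nuclear members rose and 4 fell and all 13 mitochondrial members fell (median -1.81). Under that scaling 1982 of all 11260 genes rose and 5453 fell. All 38 complex I subunits, all 12 assembly factors of complexes I and II, all 4 complex II subunits, all 8 complex III genes, 16 of 17 complex V genes and 12 of 15 complex IV genes rose. The remaining complex V gene was Atp5b, the catalytic β subunit, at 1446 ± 101 CPM in Myog-positive and 1162 ± 271 CPM in mature-muscle-like cells (log2 fold change 0.22, adjusted p = 0.27). It is named because it was the only one, after its values were seen.

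The 3 nuclear falls were the non-muscle isoforms Cox6b2, Cox6a1 and Cox8a of complex IV. Cox8a lay at 2171, 2154, 2298 and 2531 CPM in Myog-positive and at 366, 303, 375 and 560 CPM in mature-muscle-like cells (log2 fold change -2.04, SE 0.11, adjusted p = 1.4e-13). Cox6a1 fell from 367 ± 41.7 to 60.8 ± 29.4 CPM (log2 fold change -2.15, adjusted p = 2.0e-11). Cox6b2 fell from 17.8 ± 7.04 to 2.54 ± 2.04 CPM (log2 fold change -2.19, adjusted p = 3.4e-05), but rests on 14 UMIs in mature-muscle-like cells. In all 3 the states did not overlap.

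Cox6a2 and Cox8b, the muscle counterparts of Cox6a1 and Cox8a, were among the 5 largest rises. Cox6a2, the muscle isoform of subunit 6a, lay at 8.82, 50.4, 26.6 and 23.6 CPM in Myog-positive and at 4443, 5002, 5107 and 2210 CPM in mature-muscle-like cells (log2 fold change 7.79, SE 0.33, adjusted p = 3.0e-15). Its share of Cox6a UMIs was 99.0%, 99.2%, 99.0% and 95.5% in mature-muscle-like cells, against 2.45% to 12.4% in Myog-positive cells. Cox8b rose by 5.03 (adjusted p = 3.6e-13) and made 89.9%, 92.9%, 89.3% and 75.9% of Cox8 UMIs. Cox7a1 rose by 5.45 (adjusted p = 8.9e-16) yet made only 48.2%, 53.3%, 47.3% and 44.4% of Cox7a UMIs, because the other isoform, Cox7a2, also rose (log2 fold change 1.35, adjusted p = 4.6e-07). Each UMI counts 1 captured 3′ end, so these are shares of molecules and are not scaled by length.

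Subunit c of complex V, the ring that turns in the membrane, is encoded by Atp5g1, Atp5g2 and Atp5g3, which make the same mature protein. All 3 rose in mature-muscle-like cells, Atp5g1 by 3.15 (adjusted p = 7.2e-12), Atp5g2 by 1.24 (adjusted p = 3.8e-07) and Atp5g3 by 1.08 (adjusted p = 1.5e-05). The share of Atp5g1 was 20.6% ± 1.24 (SD, n = 4) in quiescent-like, 29.9% ± 1.17 in Myog-positive and 62.0% ± 4.08 in mature-muscle-like cells, and the 4 samples of these states did not overlap. Ndufaf5, which modifies a complex I subunit during assembly, rose by 5.38 (SE 0.23, adjusted p = 3.1e-15) from 7.51 ± 0.802 to 226 ± 64.3 CPM, far more than Ndufaf3 (1.07) and Ndufaf4 (1.10). Cox4i2, the lung and hypoxia isoform of Cox4, stayed at no more than 0.171% of Cox4 UMIs in any state and sample.

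**Figure D4:**
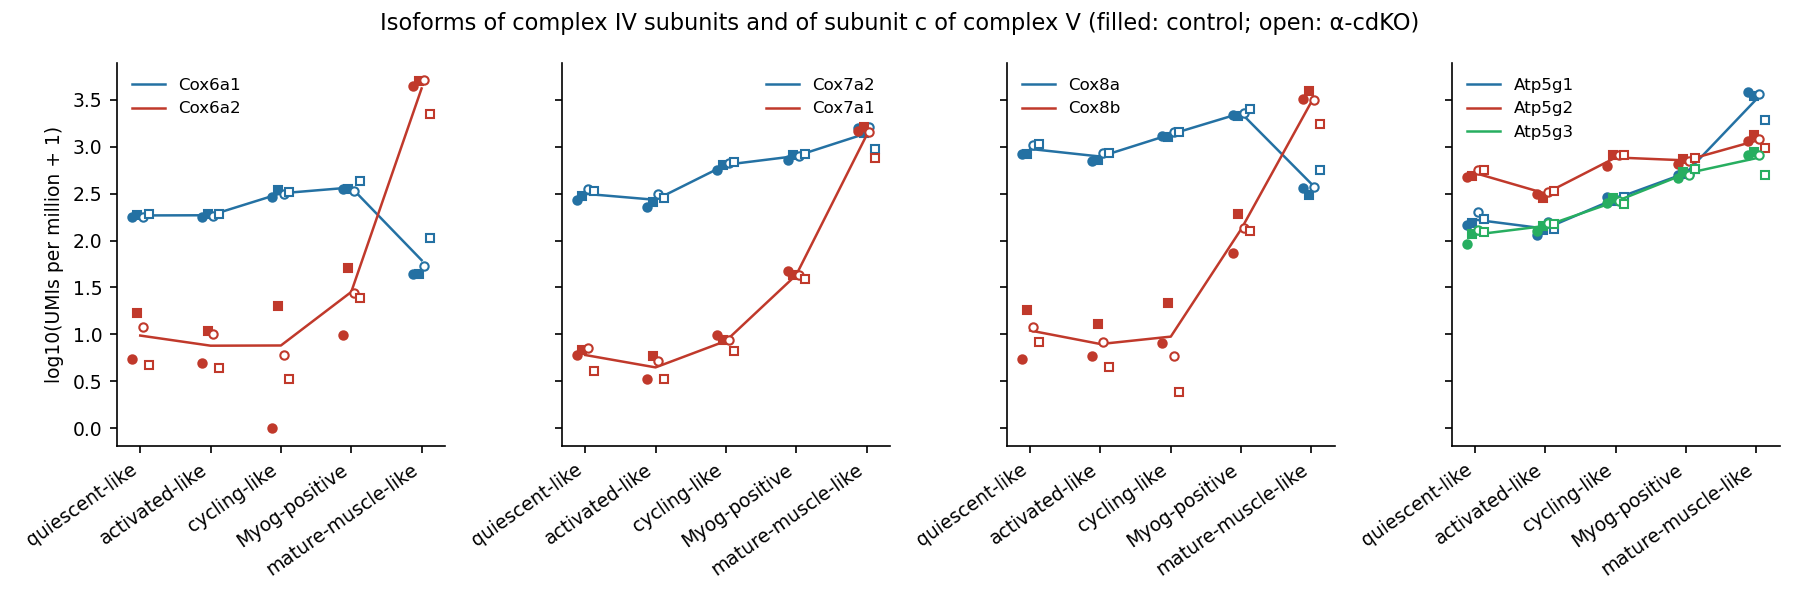
log10 of CPM plus 1 in each state for the isoforms of complex IV subunits and of subunit c of complex V, with lines through the mean of 4 samples, filled points for control and open points for α-cdKO samples. Cox6a2 and Cox8b lie above Cox6a1 and Cox8a in mature-muscle-like cells alone, and Atp5g1 has the highest level of the 3 subunit c genes there.

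The muscle isoforms outside mature muscle were set beside mature muscle markers. The 11 mature muscle markers summed to 100456 to 195792 CPM in mature-muscle-like cells. Sums were 221 to 648 CPM in quiescent-like, 173 to 490 in activated-like and 108 to 1042 in cycling-like cells. In Myog-positive cells the sum was 1883 to 3238 CPM, but Ckm alone lay at 24.3 to 166 CPM. There Acta1 had 12131 to 61182 UMIs per 1000 UMIs of Ckm, against 2158 to 2854 in mature-muscle-like cells. Tnnc2 had 711 to 1273 against 1474 to 1837, and Mylpf 515 to 1273 against 1609 to 1765. The Myog-positive sum therefore does not measure all 11 markers alike. Per 1000 UMIs of the creatine kinase gene Ckm, Cox8b had 176 to 230 UMIs in mature-muscle-like cells, 212 to 254 in quiescent-like and 158 to 256 in activated-like cells. In Myog-positive cells the figure was 1150 to 3000. Cox7a1 had 75.5 to 105 per 1000 Ckm UMIs in mature-muscle-like, 82.6 to 237 in quiescent-like, 92.2 to 122 in activated-like and 252 to 1909 in Myog-positive cells. Cox6a2 had 220 to 316 in mature-muscle-like, 125 to 254 in quiescent-like, 154 to 258 in activated-like and 303 to 514 in Myog-positive cells. In quiescent-like cells Cox8b lay above the mature muscle range in 3 of 4 samples and Cox7a1 in 2 of 4, and in activated-like cells Cox8b in 1 of 4 and Cox7a1 in 3 of 4. Cox6a2 did not lie above it in either state. The part of free muscle RNA in these levels was not tested. In Myog-positive cells Cox8b and Cox7a1 exceeded the mature muscle ratio in all 4 samples. The ratios rest on as few as 118 Ckm UMIs in a quiescent-like and 22 in a Myog-positive sample.

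Mature-muscle-like barcodes were divided into 2 groups at 1% mitochondrial UMIs, a line set within a spread of values, and the proportions differed between samples. Under 1% mitochondrial UMIs were 106 of 122 barcodes in control replicate 1, 658 of 788 in control replicate 2, 198 of 279 in α-cdKO replicate 1 and 54 of 106 in α-cdKO replicate 2. In these the nuclear members took 13.2% to 14.7% of UMIs and the mitochondrial members 0.0654% to 0.108%, and the nuclear-retained RNA Malat1 lay at only 49.4 to 561 CPM. In the other barcodes the nuclear share was 6.52%, 6.03%, 6.80% and 3.16%, the mitochondrial share 4.21% to 5.85%, and Malat1 lay at 16917 to 22146 CPM, near the 16675 to 21932 CPM of Myog-positive cells. Pax7 was at no more than 0.385 CPM in the first group and at 19.9 to 101 CPM in the second. The second group was mixed, so its values are averages over unlike barcodes. In control replicate 1, for example, a barcode held 7.06% mitochondrial and 1.98% nuclear member UMIs, and another held 13.3% and 20.4%. No mitochondrial UMI at all was found in 31, 195, 29 and 13 barcodes.

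Cox6a2 made 99.6% to 99.8% of Cox6a UMIs in barcodes under 1% mitochondrial UMIs and 83.7% to 95.5% in the others. Cox8b made 93.5% to 95.6% of Cox8 UMIs in the first group and 73.5%, 73.4%, 73.2% and 42.0% in the second. Because the mitochondrial share divided the barcodes, their difference in the ratio of the genomes is a description. The log2 ratio was -7.72 to -7.04 in the first group and -0.62, -0.52, -0.56 and 0.89 in the second. With only the second group used as mature muscle, the difference from Myog-positive cells was -0.87 and 50 members rose. This setting was chosen after the data were seen and itself raises the mitochondrial share. The share of all genes rising in it was not counted. The part of Malat1-poor barcodes in the low mitochondrial share, and of MuSC RNA in the others, was not tested. The low value of the nuclear share in α-cdKO replicate 2 accompanied its larger proportion of the second group.

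**Figure D5:**
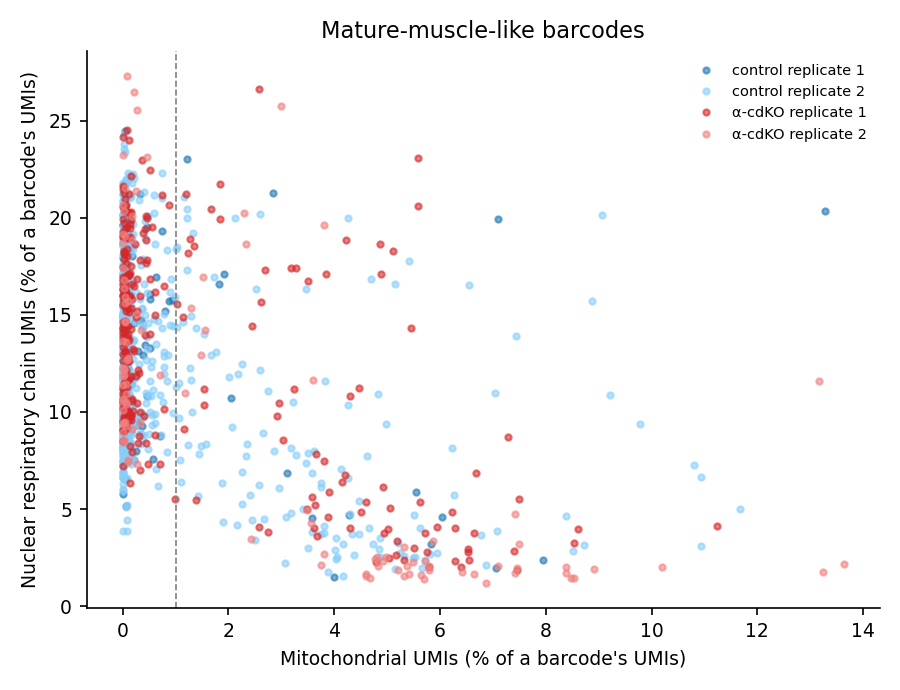
Each point is 1 mature-muscle-like barcode, with mitochondrial UMIs (% of the barcode's UMIs) on the horizontal axis, nuclear member UMIs (%) on the vertical axis, colours for the 4 samples and the dashed line at 1%. Most barcodes lie left of the line with a high nuclear share, and α-cdKO replicate 2 has 52 of its 106 barcodes to the right.

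Across the states, 75 of the 98 nuclear members were highest in mature-muscle-like cells in all 4 samples. Another 3 were highest in Myog-positive, 2 in cycling-like and 2 in quiescent-like cells. Of the 13 mitochondrial members, 5 were highest in quiescent-like and 5 in Myog-positive cells in all 4 samples. The share of all genes that were highest in each state was not counted, so these counts are a description only. By mean CPM over the states, the highest nuclear members of each complex were Ndufa4 (grouped with complex I by its symbol), Sdhb, Uqcrh, Cox7c and Atp5e. Mature-muscle-like cells weigh heavily in such a mean, and the order need not hold within each state. Atp5e, the epsilon subunit of complex V, ranged from 458 ± 45.4 CPM in activated-like to 5103 ± 1007 CPM in mature-muscle-like cells (SD, n = 4). Cox7c, a small complex IV subunit, ranged from 552 ± 47.9 to 4189 ± 866 CPM in the same states. Uqcrh ranged only from 681 ± 89.7 in cycling-like to 1710 ± 227 in mature-muscle-like cells.

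The mitochondrial transcripts also changed in proportion among themselves. The share of mt-Co1 among mitochondrial UMIs was 15.7% ± 0.717 (SD, n = 4) in quiescent-like, 14.9% ± 0.817 in activated-like, 13.8% ± 0.604 in cycling-like and 12.2% ± 0.450 in Myog-positive cells. The share of mt-Nd1, a core subunit of complex I, was 4.42% ± 0.239, 4.80% ± 0.173, 5.37% ± 0.252 and 6.57% ± 0.393 in the same states. For both genes the samples of quiescent-like and Myog-positive cells did not overlap. In mature-muscle-like cells mt-Co1 stood at 14.4% ± 0.564 and mt-Nd1 at 4.78% ± 0.589.

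Genes that serve mitochondria without being members were counted from lists of the same pathway. In Myog-positive against activated-like cells, 64 of 78 mitochondrial ribosome genes rose and 2 fell, 14 of 17 citrate cycle genes rose and 1 fell, 13 of 18 complex IV assembly genes rose and 0 fell, and 11 of 16 electron carrier genes rose and 1 fell, where 29.1% of all genes rose and 32.9% fell. Their medians were 1.18, 1.22, 0.95 and 1.28, beside 1.38 for the nuclear members. Cycs, which encodes cytochrome c, rose from quiescent-like to activated-like cells (log2 fold change 1.41, adjusted p = 1.4e-07). The electron carrier genes, of which it is 1, went mostly the other way there, with 5 rises and 8 falls among 16 (median -0.43). There the citrate cycle genes had 1 rise and 5 falls among 17, and the mitochondrial ribosome genes 13 rises and 43 falls among 78, beside 29.0% and 37.9% of all genes.

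Of 13 regulators of mitochondrial biogenesis tested in Myog-positive against activated-like cells, 4 rose and 4 fell, or 30.8% each, near the shares of all genes (29.1% and 32.9%). Ppargc1a, the coactivator PGC-1α, rose from 1.86 to 42.4 CPM (mean of 4 samples, log2 fold change 4.06, adjusted p = 8.9e-13), and Esrra, the nuclear receptor ERRα, from 1.95 to 20.0 CPM (2.91, adjusted p = 4.4e-09). Pprc1, a related coactivator, fell from 34.7 to 16.5 CPM (-1.40, adjusted p = 1.4e-06) but rose from quiescent-like to activated-like cells (1.95, adjusted p = 2.5e-09). Tfam, the packaging and transcription factor of mitochondrial DNA, also rose in activated-like cells (1.56, adjusted p = 4.1e-09) and fell in Myog-positive cells (-1.29, adjusted p = 2.7e-07). Polrmt, the mitochondrial RNA polymerase, rose in Myog-positive cells (1.83, adjusted p = 4.9e-06) from 1.61 to 7.54 CPM. Of the 20 genes of mitochondrial transcription and replication tested there, 11 rose and 3 fell. From quiescent-like to activated-like cells 5 of these 20 rose and 9 fell, and 7 of the 13 regulators rose and 4 fell. Over all genes 29.0% rose and 37.9% fell in that contrast.

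No member was called between genotypes by edgeR, fitted without a replicate block, in any class of cells. The counts were 0 of 108 members in all myogenic cells, where 0.178% of all genes were called, 0 of 107 in quiescent-like (0.0686% of all genes), 0 of 108 in activated-like (0.315%), 0 of 106 in cycling-like (0.0337%), 0 of 107 in Myog-positive (0.0227%) and 0 of 106 in mature-muscle-like cells (0.108%). Unadjusted p was under 0.05 for 16, 14, 9, 8, 2 and 11 members in these classes. Over all genes tested it was so for 1022 of 14628, 934 of 11659, 987 of 13351, 736 of 8898, 510 of 8792 and 673 of 5578. A further test asked whether the change from quiescent-like to activated-like cells differed between genotypes. There edgeR made no call among 108 members or among all genes (0%). Unadjusted p was under 0.05 for 0 members and for 550 of all 12761 genes. DESeq2 called 1 member, mt-Atp8, in each of the first 3 classes. The share of all genes that DESeq2 called was not counted, so these calls have no background beside them. The 3 classes are not separate, because all myogenic cells include the quiescent-like and activated-like cells.

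The nuclear members were nevertheless slightly higher in α-cdKO samples in the stem cell states. In quiescent-like cells 50 of 94 nuclear members were higher in both α-cdKO samples than in both controls and 3 lower, whereas 16.9% of all genes were higher and 23.2% lower without overlap. In activated-like cells 35 of 95 were higher and 10 lower (16.4% and 21.0% of all genes). In cycling-like and Myog-positive cells the directions were even, with 20 higher and 17 lower of 93 (16.0% and 25.6% of all genes), and 12 and 12 of 94 (15.8% and 19.4%). The nuclear share of UMIs in all myogenic cells was 1.48% ± 0.108 in control and 1.72% ± 0.0919 in α-cdKO samples (SD, n = 2), and in quiescent-like cells it was 1.57% and 1.68% against 1.88% and 1.81%. The mitochondrial share overlapped between genotypes in these classes. The log2 ratio was lower in α-cdKO samples by 0.21 in all myogenic, 0.18 in quiescent-like and 0.14 in activated-like cells, without overlap, with an exact two-sided permutation p of 0.33 each (0.5 adjusted over the 6 classes), the smallest that 2 samples against 2 allow. The all myogenic class also differed in its mix of states. Cycling-like and Myog-positive cells, whose nuclear share is larger, numbered 30 and 51 of 5283, 84 and 102 of 4512, 399 and 280 of 9399, and 123 and 182 of 7987 cells. The part of this mix in the pooled differences was not tested.

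In mature-muscle-like cells the 2 α-cdKO samples had all 13 mitochondrial members above both controls, where 24.2% of all genes were higher without overlap, and 23 of 93 nuclear members below them (23.9% of all genes). The log2 ratio differed by 1.52, from -3.32 ± 0.225 to -1.81 ± 1.34, and the exact permutation p was 0.33. A fit without α-cdKO replicate 1 leaves replicate 2 alone and assumes that it varies like the controls. Its calls are therefore listed only among the alternatives below. The same samples had the larger proportions of barcodes at or over 1% mitochondrial UMIs, 29.0% and 49.1% against 13.1% and 16.5% in the controls. The part of these proportions in the difference was not tested.

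The member nearest to a difference was mt-Atp8, which encodes a small membrane subunit of complex V. In quiescent-like cells it lay at 331 and 277 CPM in control and at 181 and 152 CPM in α-cdKO samples, and in activated-like cells at 307 and 226 against 153 and 142 CPM. The genotypes did not overlap in either state. By edgeR the adjusted p was 0.13 and 0.14, and by DESeq2 0.0054 and 0.0033 (log2 fold change -0.83 and -0.82). As a share of mitochondrial UMIs, mt-Atp8 was lower in both α-cdKO samples in all 5 states, as were mt-Nd2 and mt-Nd4l, and mt-Co3 was higher in all 5. In the non-myogenic cells of the same libraries mt-Atp8 made 0.556% and 0.351% of mitochondrial UMIs in control and 0.259% and 0.303% in α-cdKO samples, and mt-Nd2 6.62% and 5.82% against 4.66% and 4.50%. For these 2 genes and for mt-Nd4l the genotypes did not overlap in these endothelial-like and immune-like cells either. For mt-Co3 they overlapped there, at 18.0% and 19.4% in control and 19.3% and 20.1% in α-cdKO samples. All these classes come from the same 4 libraries, so they do not repeat the comparison. The overlap of mt-Atp8 with mt-Atp6 given above limits the reading of its level, and mt-Atp6 itself had shares of mitochondrial UMIs that overlapped between genotypes in all 5 states.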

How the data were processed

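Single-cell 3′ RNA sequencing was analysed for 2 control and 2 α-cdKO samples. The authors deposited matrices of UMI counts per gene and barcode made with Cell Ranger (7.1.0 per the file headers). The submitters' processing notes name GRCm38, mm10 and Seurat 4.0.3. Barcodes with at least 1000 UMIs, 400 genes and under 15% mitochondrial UMIs were clustered with Seurat 5.3.0 (2000 variable genes without members, 30 components, Harmony's published algorithm for integration by sample, resolution 0.2) in 2 rounds, the second on myogenic cells. Of these, 631 differentiated-like cells under the Myog gate and 389 of a cluster that raised mature muscle genes entered no state. The doublet scores used scanpy 1.11.5 (0.8% per 1000 cells) and removed cells only in an alternative.

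Counts were summed per sample and state. The test was edgeR's quasi-likelihood test (version 4.0.16) after filterByExpr with TMM scaling, and p-values were adjusted over all genes by Benjamini-Hochberg. DESeq2 1.42.0 was an alternative. Scripts were tested on simulated data. Named were all mitochondrial members, the isoform sets, the SDH subunits, the 5 largest called nuclear rises and falls per contrast (at least 10 CPM in 1 state, same sign in 4 samples) and the highest nuclear member per complex. Members and lists were chosen with earlier results of these data known. The labels do not say what the replicate numbers mark. Deviations of same-numbered samples had correlations from -0.21 to 0.08 over the genes compared and from -0.35 to 0.27 over the members alone. No block was used. The samples are separate pools of mice, and p-values over 2 against 2 measure only their spread. Alternatives changed scaling, filters, clustering, gates and samples. Errors are spreads over samples, which include counting error.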

Additional observations from a re-analysis of the deposited data

Results flagged for a closer look

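Among 15 values over 4 samples (the mitochondrial share, nuclear share and log2 ratio in 5 states), 1 had a sample far from the others. The nuclear member share in mature-muscle-like cells was 11.3%, 11.7% and 11.8% in control replicates 1 and 2 and α-cdKO replicate 1 but 6.92% in α-cdKO replicate 2, a gap of 0.906 of the whole range. Chance alone sets about 1 group in 20 apart in this way. In the same sample 49.1% of the 106 mature-muscle-like barcodes had at least 1% mitochondrial UMIs, against 13.1% to 29.0% in the others, and within the barcodes under 1% its nuclear share was 13.8%, inside the 13.2% to 14.7% of all samples.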

How the results depend on the processing

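Over 25 results and their alternatives 453 values were computed, of which 394 kept their direction and side of the threshold, or stayed within 1.5 times for counts, 51 moved and 8 reversed. Causes were not tested. In activated-like against quiescent-like cells the 8 rises became 5 with DESeq2, 24 with no filter on low counts, 17 with no limit on mitochondrial UMIs, 3 with at least 2000 UMIs per cell, 13 without integration or with a second set of seeds, 5 with members among the variable genes, and 3 to 10 when 1 sample was left out. The 42 falls became 17 with no filter, 69 with members among the variable genes, 27 with doublets removed, and 19 to 61 when 1 sample was left out. In cycling-like against activated-like cells the 49 rises became 84 with library totals (added after seeing the data) and 23 with no filter, and the 19 falls became 1 with library totals and 9 with doublets removed. In Myog-positive against activated-like cells the 2 falls became 1 with DESeq2, RLE factors, a second set of seeds or a Myog gate of 1 UMI, 0 with library totals, at least 2000 UMIs, members among the variable genes or doublets removed, 4 without integration and 13 with no filter. In mature-muscle-like against Myog-positive cells the 90 rises became 50 with barcodes of at least 1% mitochondrial UMIs.

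Leaving out 1 sample gave 32 to 64 rises and 9 to 21 falls for cycling-like cells, 0 to 6 falls for Myog-positive cells, and in genotype comparisons 0 to 1 calls in activated-like, 0 to 2 in cycling-like, 0 to 1 in Myog-positive and 0 to 78 in mature-muscle-like cells. Genotype calls of 0 became 1 with DESeq2 (all myogenic, quiescent-like, activated-like), and with no filter 2 in quiescent-like, 1 in activated-like and 3 in cycling-like cells. A replicate block gave 1 call (mt-Atp8 lower in quiescent-like cells, adjusted p = 0.049) and 0 elsewhere, and a crossed replicate block, added because same-numbered samples had correlations of -0.21 to -0.13 in all myogenic, activated-like and mature-muscle-like cells, gave 1 call in all myogenic, activated-like, cycling-like and mature-muscle-like cells.

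The log2 ratio of activated-like against quiescent-like cells reversed to -0.052 with no limit on mitochondrial UMIs. The ratio between genotypes, 0.02 in cycling-like cells, became -0.043 with cells thinned to 1000 UMIs, -0.066 as a mean over cells, and -0.12 to 0.16 when 1 sample was left out (lowest without α-cdKO replicate 1). In Myog-positive cells 0.05 became -0.012 with the differentiated-like cluster, -0.0084 with thinned cells, -0.022 as a mean over cells, and -0.19 to 0.30 when 1 sample was left out (lowest without α-cdKO replicate 1). The other ratios between states kept their sign, from -1.04 to -0.91 for cycling-like, -1.53 to -1.25 for Myog-positive and -4.91 to -0.87 for mature-muscle-like cells. Depth limits the smallest groups most, above all the 30 cycling-like cells of control replicate 1.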

Other observations

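Barcodes over the limit of 15% mitochondrial UMIs were set apart from every comparison and numbered 135, 215, 340 and 138, or 2.40%, 3.86%, 3.36% and 1.66% of those passing the other filters. They held 1756 to 1976 UMIs at the median, with 21.8% to 22.7% from mitochondrial members and 0.848% to 1.87% from nuclear members, a log2 ratio of 3.60 to 4.68. Pax7, the MuSC factor, lay at 167 to 403 CPM and Malat1 at 62352 to 75810 CPM in them. When no limit was set and the cells were clustered anew, 625 of these barcodes fell among 4830 quiescent-like cells and 47 among 21386 activated-like cells.

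In the differentiated-like cells with fewer than 2 Myog UMIs, which entered no state, nuclear members took 2.10%, 2.32%, 2.41% and 2.32% of UMIs and mitochondrial members 5.48%, 4.72%, 5.94% and 4.73%.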
